A study of Mus musculus with 24 samples.

Results

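Macrophages live between the fibres of skeletal muscle, mostly in the connective tissue around vessels and fascicles, where they clear debris and take up haemoglobin released from red cells. Resident macrophages are the main source of C1q, the recognition molecule of the classical complement pathway, which is assembled from A, B and C chains that carry a collagen-like stalk and a globular head. The set described here holds 10 genes chosen by name for this cell type, of 14754 genes with a named probe set on the array. Earlier results of these data were known when the set was chosen. They are C1qa, C1qb and C1qc (the C1q chains), Cd163 (the scavenger receptor for haemoglobin bound to haptoglobin), Mrc1 (the mannose receptor), Csf1r (the receptor for the macrophage growth factors Csf1 and Il34), Cd68 (a glycoprotein of lysosomes and endosomes), Lyz2 (the lysozyme of macrophages and neutrophils), Cd14 (a co-receptor for bacterial lipopolysaccharide) and Ccrl2 (an atypical chemokine receptor that binds chemerin). Each had 1 probe set, named by its Entrez gene number and matched to the symbol through the platform annotation.

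RNA of whole quadriceps, a thigh muscle, from male mice was hybridised to Affymetrix mouse genome 430 2.0 arrays, with 1 mouse on each of 24 arrays. The strain is written C57BL/6J in the study's design and C56BL/6J in the sample labels. All mice moved at 9 weeks of age to a low fat run-in diet for 3 weeks and were then assigned at random to a palm oil diet. The 4 groups of 6 mice were high fat (HF, 45% of energy as fat) for 3 days, low fat (LF, 10%) for 3 days, high fat for 28 days and low fat for 28 days, with mice 12 weeks old at day 3 and 16 weeks old at day 28. Mouse numbers ran from 1767 to 1772 in HF day 3, from 2010 to 2019 in LF day 3, from 1751 to 1758 in HF day 28 and from 2020 to 2025 in LF day 28, so diet and number range cannot be told apart, nor can day and age.

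Values are log2 of the deposited intensity, called the level below. Testing was limited to genes with a level over 4 on 6 or more of the 24 arrays, a filter passed by 5793 genes and by 8 of the 10. C1qa, C1qb, C1qc, Cd163, Mrc1, Csf1r and Lyz2 exceeded that level on all 24 arrays and Ccrl2 on 17. Cd68 exceeded it on 3 arrays and Cd14 on 2, so both were outside the test and are described apart. A gene is called, and counted below as higher or lower, where the limma adjusted p over the 5793 genes was under 0.05, and errors of changes are standard errors (SE) of that fit. A change, fall or rise means high fat against low fat on the same day, except where day 28 is compared with day 3. It does not say which diet group moved over time. Because whole muscle was measured, fewer macrophages and less RNA per macrophage cannot be told apart. Defining genes of skeletal muscle were at mean levels of 13.48 to 13.62 on the 24 arrays. At day 28 these means ran from 13.59 to 13.62 on high fat and from 13.48 to 13.58 on low fat, without overlap. Of the 10 genes, 1, Mb, was called higher on high fat at both days.

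After 28 days, 7 of the 8 tested genes were called lower on the high fat diet, and after 3 days 2 of the 8 were. At day 28 the C1q chains were 2.82-fold to 2.92-fold lower on high fat, Mrc1 2.23-fold and Cd163 2.19-fold lower, and Lyz2 and Csf1r 1.80-fold and 1.57-fold lower. At day 3 all 8 had a lower mean on high fat, with log2 changes from -0.99 to -0.28, and Cd163 and Ccrl2 were the genes that passed the test. Ccrl2 was not called at day 28, and among the 8 it was the one gene for which the diet effect differed between the days by the test. Among all 5793 genes, 12.5% were called at day 28 in either direction and 7.18% lower, and at day 3 14.9% were called and 6.87% lower. The median log2 change of the 8 genes was -1.15 at day 28, against 0.01 over all tested genes, and -0.51 at day 3, against -0.005 over all tested genes. As the set was chosen with earlier results of these data known, its distance from all genes is not independent support.

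**Figure D1:**
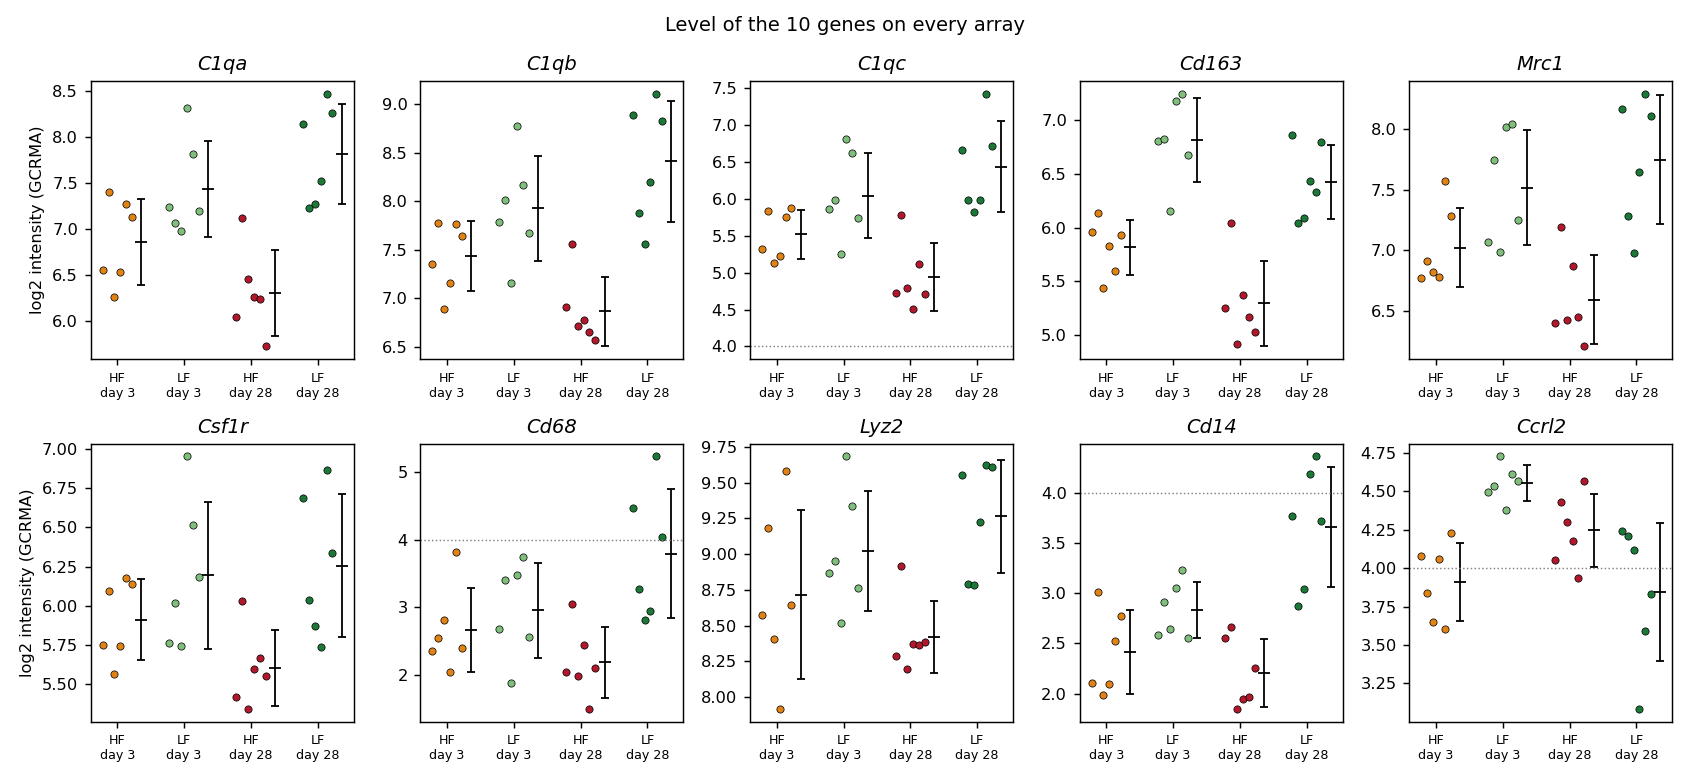
Level (log2 GCRMA intensity) of each of the 10 genes, 1 point per array, for high fat (HF) and low fat (LF) mice at day 3 and day 28, with the mean and SD of the 6 arrays beside the points; the dotted line marks the level of 4 used as the filter. C1qa ran from 5.72 to 7.12 in HF day 28 and from 7.23 to 8.47 in LF day 28, while Ccrl2 was highest in LF day 3.

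C1qb and C1qc lie next to each other and to C1qa on mouse chromosome 4, in the order C1qb, C1qc, C1qa with no other annotated gene between them. The promoters of C1qb and C1qc are shown because these neighbouring genes moved together, and that of Ccrl2 because it did not move with them. Each line gives the 250 bases before the annotated start from RefSeq (GRCm38.p6), 5′ to 3′ on the gene's strand. Capitals mark AGGAAGT, read on either strand, a purine-rich word of the kind bound by PU.1 and other ETS factors of myeloid cells.
C1qb, chr4:136886201-136886450, minus strand: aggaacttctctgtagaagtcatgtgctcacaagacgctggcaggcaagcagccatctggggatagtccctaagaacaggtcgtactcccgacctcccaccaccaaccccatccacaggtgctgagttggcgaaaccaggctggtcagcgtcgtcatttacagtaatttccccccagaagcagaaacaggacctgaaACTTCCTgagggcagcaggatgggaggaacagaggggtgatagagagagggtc
C1qc, chr4:136892915-136893164, minus strand: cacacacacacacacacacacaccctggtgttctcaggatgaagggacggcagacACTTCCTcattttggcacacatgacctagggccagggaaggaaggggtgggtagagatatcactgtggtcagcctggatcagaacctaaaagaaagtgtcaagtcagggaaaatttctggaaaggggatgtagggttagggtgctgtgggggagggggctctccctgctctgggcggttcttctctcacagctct
Ccrl2, chr9:111057519-111057768, minus strand: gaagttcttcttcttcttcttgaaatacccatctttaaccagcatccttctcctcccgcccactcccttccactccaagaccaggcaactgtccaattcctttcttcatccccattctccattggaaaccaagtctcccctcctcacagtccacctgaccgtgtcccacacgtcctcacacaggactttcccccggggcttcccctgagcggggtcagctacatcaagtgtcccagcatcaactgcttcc

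The word began 53 bases before the start of C1qb and 195 bases before that of C1qc, in both as its reverse complement ACTTCCT. Promoters of 7 of the 10 genes were searched, and 4 of the 7 held the word, namely C1qb, C1qc, Mrc1 and Lyz2. Csf1r and Cd14, both on chromosome 18, were left out of the search, and C1qa had no promoter entry. It was in none of the windows of Cd163, Cd68 and Ccrl2, the last with 3 annotated starts. Over all 32851 promoters of the same length in the table, 7.69% held it, and counted by gene 8.8% of 27025 genes did. No chromosome was left out of these background counts. A match of letters is a description of the sequence and shows neither binding nor a cause of the changes.

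The C1q chains were lower by nearly the same step at day 28. C1qb had a lowest level of 6.58, a median of 6.75 and a highest of 7.56 in HF day 28, against 7.56, 8.51 and 9.11 in LF day 28. The groups touched at one point, where HF replicate 2 and LF replicate 3 both stood at 7.56, and the other HF mice were below every LF mouse. The log2 change was -1.55 ± 0.26 (SE, adjusted p = 0.000368), or 2.92-fold lower.

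C1qa, the A chain, ran from 5.72 over a median of 6.25 to 7.12 in HF day 28 and from 7.23 over 7.83 to 8.47 in LF day 28. No HF mouse reached the lowest LF mouse. Its log2 change was -1.51 ± 0.27 (SE, adjusted p = 0.000664), or 2.85-fold lower. C1qc, the C chain, ran from 4.51 over 4.76 to 5.79 in HF day 28 and from 5.82 over 6.33 to 7.43 in LF day 28. Its groups did not overlap either, and it was 2.82-fold lower, with a log2 change of -1.49 ± 0.28 (SE, adjusted p = 0.000835).

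At day 3 the chains had lower means on high fat with overlapping groups, and none was called. C1qb had a lowest level of 6.89, a median of 7.50 and a highest of 7.78 in HF day 3, against 7.16, 7.90 and 8.78 in LF day 3. Of the 6 HF mice, 2 were below every LF mouse. The log2 change of C1qb was -0.50 ± 0.26 (SE, 95% interval -1.04 to 0.05, adjusted p = 0.215), that of C1qa -0.58 (-1.14 to -0.01, adjusted p = 0.162) and that of C1qc -0.52 (-1.10 to 0.05, adjusted p = 0.214). Whether the diet effect on the chains differed between the days was tested directly. The day 28 effect minus the day 3 effect was -0.93 ± 0.39 for C1qa, -1.05 ± 0.37 for C1qb and -0.97 ± 0.39 for C1qc (SE), with unadjusted p of 0.0244, 0.0100 and 0.0214 and adjusted p of 0.199, 0.137 and 0.187, so none passed.

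The chains also followed each other from mouse to mouse. Across the 24 arrays the level of C1qb spanned 2.53 log2 units, while the difference between C1qa and C1qb on the same array spanned 0.77, with an SD of 0.20. The difference between C1qa and C1qc had an SD of 0.21 and that between C1qb and C1qc one of 0.20, against SDs of 0.74 to 0.75 for the levels of the chains. These are differences within arrays and say nothing of the relative amounts of the chains, since each probe set has its own scale.

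Of the receptors of uptake, Cd163 fell at both days. At day 3 it had a lowest level of 5.44, a median of 5.88 and a highest of 6.14 in HF mice, against 6.15, 6.81 and 7.24 in LF mice. Every HF mouse was below every LF mouse, the nearest being HF replicate 2 at 6.14 and LF replicate 3 at 6.15. The log2 change was -0.99 ± 0.19 (SE, adjusted p = 0.00137), or 1.99-fold lower. At day 28 it ran from 4.92 over 5.21 to 6.04 in HF mice and from 6.05 over 6.38 to 6.86 in LF mice. The groups again did not overlap, with HF replicate 2 at 6.04 apart from the other HF mice, and the log2 change was -1.13 ± 0.19 (SE, adjusted p = 0.000379). The effects of the 2 days differed by -0.14 ± 0.27 (SE, 95% interval -0.70 to 0.43, adjusted p = 0.834).

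Mrc1 was called at day 28 only, and the difference between the days was not called (-0.66 ± 0.34, SE, adjusted p = 0.290). It ran from 6.203 over a median of 6.43 to 7.19 in HF day 28 and from 6.98 over 7.88 to 8.30 in LF day 28. HF replicate 2 was inside the LF range and the other 5 HF mice were below it. Its log2 change was -1.16 ± 0.24 (SE, adjusted p = 0.00190), or 2.23-fold lower. At day 3 the change was -0.50 ± 0.24 (SE, 95% interval -0.99 to -0.01, adjusted p = 0.164), with levels of 6.77 to 7.57 in HF mice and 6.99 to 8.04 in LF mice.

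Csf1r, the growth factor receptor, had the smallest fall among the genes called at day 28. It ran from 5.34 over 5.58 to 6.03 in HF day 28 and from 5.74 over 6.19 to 6.87 in LF day 28. Of the HF mice, 5 were below every LF mouse. The log2 change was -0.65 ± 0.20 (SE, adjusted p = 0.0353), or 1.57-fold lower. This call was near the cut-off. It was lost on leaving out any 1 of 7 arrays, at adjusted p of 0.0597 to 0.0998. These were HF day 28 replicates 1, 3, 4 and 6, and LF day 28 replicates 1, 5 and 6. The log2 change without 1 of them was -0.65 to -0.53. With every gene tested, Csf1r had an adjusted p of 0.0561, and with quantile normalization 0.0602. At day 3 its log2 change was -0.28 ± 0.20 (SE, adjusted p = 0.374).

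Lyz2, the lysozyme, ran from 8.20 over 8.37 to 8.92 in HF day 28 and from 8.79 over 9.39 to 9.62 in LF day 28. HF replicate 2 was inside the LF range and 5 HF mice were below it. The log2 change was -0.84 ± 0.24 (SE, adjusted p = 0.0188), or 1.80-fold lower. At day 3 Lyz2 spread widely on high fat, from 7.91 to 9.59, against 8.52 to 9.69 on low fat, and its log2 change was -0.30 ± 0.24 (SE, adjusted p = 0.416).

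Cd14 and Cd68 were dim, and values so low depend on the background correction. Cd14 ran from 1.85 over 2.11 to 2.66 in HF day 28 and from 2.88 over 3.74 to 4.36 in LF day 28. No HF mouse reached an LF mouse. Cd68 ran from 1.496 over 2.07 to 3.06 in HF day 28 and from 2.81 over 3.65 to 5.23 in LF day 28, and 5 HF mice were below every LF mouse. In a fit of all 14754 genes without the filter, in which 5.5% were called at day 28 and 3.36% lower, Cd14 had a log2 change of -1.45 ± 0.23 (SE, adjusted p = 0.000299) and Cd68 one of -1.61 ± 0.38 (SE, adjusted p = 0.0115). At day 3 the same fit gave -0.41 ± 0.23 for Cd14 (adjusted p = 0.364) and -0.29 ± 0.38 for Cd68 (adjusted p = 0.762).

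Ccrl2 behaved apart from the others. At day 3 it had a lowest level of 3.61, a median of 3.95 and a highest of 4.23 in HF mice, against 4.38, 4.55 and 4.73 in LF mice. All HF mice were below all LF mice, and the LF mice were close together (SD 0.12). The log2 change was -0.64 ± 0.16 (SE, adjusted p = 0.00868), or 1.56-fold lower. At day 28 it ran from 3.94 over 4.24 to 4.57 in HF mice and from 3.08 over 3.98 to 4.24 in LF mice. The groups overlapped with 3 HF mice above every LF mouse, and the change was 0.40 ± 0.16 (SE, 95% interval 0.07 to 0.73, adjusted p = 0.112).

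The difference of the diet effects on Ccrl2, day 28 minus day 3, was 1.04 ± 0.23 (SE, adjusted p = 0.0286), in a comparison in which 1.38% of all tested genes were called and 0.673% were called upward. Ccrl2 was the only one of the 8 genes called there. The call was lost without HF day 28 replicate 2 (adjusted p = 0.0584), without LF day 28 replicate 5 (0.0563) and with every gene tested (0.0524). Its levels lie close to the filter level of 4, and dim values depend on the background correction.

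**Figure D2:**
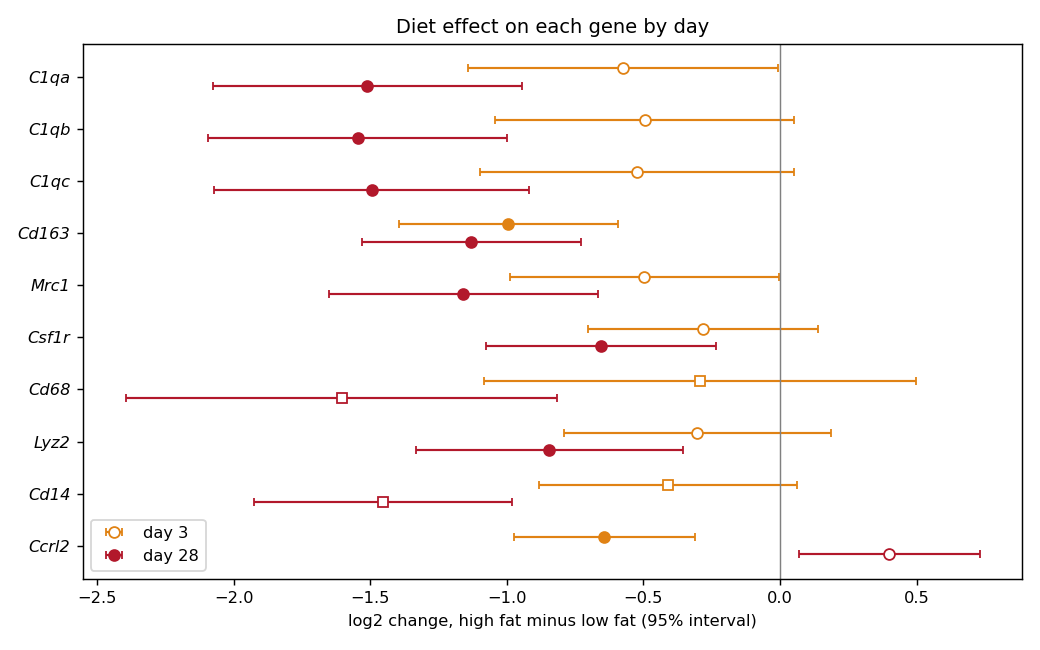
Log2 change, high fat minus low fat, of each gene at day 3 (upper, orange) and day 28 (lower, red), with 95% intervals of the fit; filled symbols are called, and squares are Cd68 and Cd14, which were outside the test and are shown from the fit without the filter. At day 28 the intervals of C1qa, C1qb and C1qc lie between -2.09 and -0.92, and that of Ccrl2 lies above 0.

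Of the called falls, those with groups that did not overlap were Cd163 and Ccrl2 at day 3, in a comparison where 2.59% of all tested genes were lower with no overlap, and C1qa, C1qc and Cd163 at day 28, where 4.56% were. Cd163 was in both sets.

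Levels can also be set in order over the 4 groups. C1qa, C1qb, C1qc, Mrc1, Csf1r, Lyz2, Cd68 and Cd14 had their highest mean in LF day 28, then LF day 3, HF day 3 and HF day 28. Cd163 had LF day 3 above LF day 28, and Ccrl2 had the order LF day 3, HF day 28, HF day 3, LF day 28. The day 28 and day 3 means of 1 diet could not be separated by the test for any of the 8. Comparing day 28 with day 3, limma called 0 of the 8 genes on high fat, where 0.552% of all tested genes were called, and 0 on low fat, where 0.345% were. At an unadjusted p under 0.05 the numbers were 4 of 8 on high fat, where 14.4% of all tested genes were under it, and 1 of 8 on low fat, where 16.6% were. The median change of the 8 genes was -0.48 on high fat and 0.24 on low fat, against 0.01 over all tested genes on either diet.

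On high fat, C1qb averaged 6.87 ± 0.36 at day 28 and 7.43 ± 0.36 at day 3 (SD, n = 6 each), a log2 change of -0.57 ± 0.26 (SE, adjusted p = 0.320). Cd163 averaged 5.30 ± 0.40 at day 28 and 5.82 ± 0.26 at day 3 on high fat (SD, n = 6 each), with a change of -0.52 ± 0.19 (SE, adjusted p = 0.211). On low fat C1qb averaged 8.41 ± 0.62 at day 28 and 7.93 ± 0.54 at day 3 (SD, n = 6 each), a change of 0.48 ± 0.26 (SE, adjusted p = 0.368). Ccrl2 had the smallest p on low fat, with 3.85 ± 0.45 at day 28 and 4.55 ± 0.12 at day 3 (SD, n = 6 each). All 6 LF day 28 mice were below all LF day 3 mice, as 0.518% of all tested genes were, with a change of -0.71 ± 0.16 (SE, adjusted p = 0.0523). Leaving out 1 of 4 arrays (HF day 3 replicate 5, HF day 28 replicate 6, LF day 28 replicate 1 or 3) gave Ccrl2 an adjusted p of 0.0356 to 0.0495.

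Within groups, the 7 tested genes other than Ccrl2 varied together from mouse to mouse. The Pearson correlation of deviations from the group means, over the 24 arrays, was 0.90 to 0.91 between the C1q chains, 0.82 to 0.88 between Mrc1 and each chain, and 0.86 to 0.90 between Csf1r and each chain. Cd163 was the least tied to the chains among the 7, at 0.69 to 0.78, and to Lyz2 it stood at 0.60. Ccrl2 lay between -0.28 and 0.06 with the other 7. The arrays share tissue dissection, labelling and normalization, so these values describe the arrays only.

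**Figure D3:**
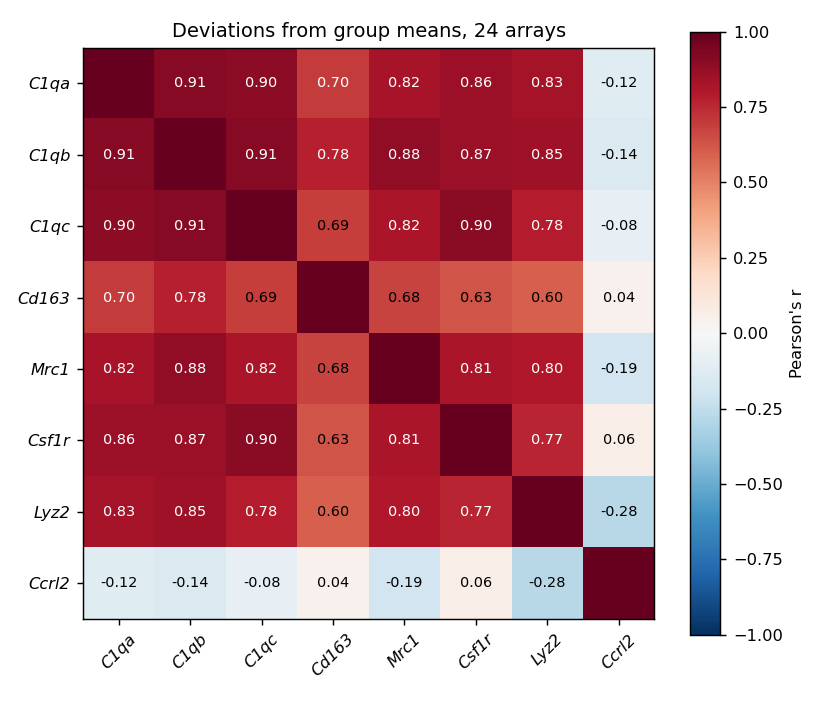
Pearson's r between each pair of the 8 tested genes, computed from deviations from the group mean on the 24 arrays; red is positive and blue negative. All pairs without Ccrl2 lie between 0.60 and 0.91, and the Ccrl2 row and column are near 0.

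Some mice were at the end of their group for most genes. In HF day 28, replicate 2 was the highest for 7 of 7 genes other than Ccrl2. In LF day 28, replicate 5 was the highest for 6 of 7. In LF day 3, replicate 3 was the lowest for 7 of 7 and replicate 4 the highest for 5. In HF day 3, replicate 3 was the lowest for 5, while replicates 2 and 5 were the highest for 3 each. The lowest place was spread over 3 mice in HF day 28 and over 3 in LF day 28.

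Outside the set, the tested genes whose pattern over the 24 arrays was most like the mean of the C1q chains were F13a1 (r = 0.956), Tyrobp (0.941), Fcgr2b (0.939), Cfp (0.923), Ccl8 (0.921), Fcna (0.920), Fcgr3 (0.909) and Lgals3 (0.909). F13a1 encodes the A chain of coagulation factor XIII, Tyrobp a signalling adaptor of myeloid receptors, Fcgr2b and Fcgr3 receptors for antibody, Cfp properdin, Fcna the lectin ficolin A and Lgals3 galectin-3. Over deviations from group means their r with the chains was 0.81 to 0.90. All 8 were called lower at day 28, F13a1 with the change nearest to 0 (-1.23), and at day 3 Fcgr3 was (-0.87 ± 0.25, SE, adjusted p = 0.0219). As they were picked for likeness over the same arrays, these changes follow in part from the choice.

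Other macrophage and myeloid genes were taken from a list of 50 that holds no gene of the set, of which 21 were tested. At day 28 16 were lower and none higher, with a median log2 change of -1.12, and at day 3 1 was lower, Fcgr3, with a median of -0.31. Of all 5793 tested genes, 7.18% were called lower at day 28 and 6.87% at day 3. In either direction 12.5% and 14.9% were called, and these shares apply to the counts of the lists below too. Fcgr2b had a change of -1.51 ± 0.28 (adjusted p = 0.000913), Lyve1, a hyaluronan receptor of resident macrophages and lymphatic vessels, -1.46 ± 0.28, Lgals3 -2.24 ± 0.42 and Fcer1g, the common signalling chain of Fc receptors, -1.12 ± 0.22 at day 28 (SE). The remaining 25 genes of the list on the array were under the filter, and 17 of them exceeded the filter level on no array, among them Cx3cr1, Itgam and Siglec1.

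Of the complement genes beside C1q, 10 were tested. At day 28 4 were lower and none higher, with a median of -0.19. The C1 proteases that C1q activates were both among them, C1ra with -0.68 ± 0.20 (SE, adjusted p = 0.0289) and C1s1 with -0.88 ± 0.28 (adjusted p = 0.0397). Clu, the complement inhibitor clusterin, had -1.11 ± 0.21 and Cfp -1.33 ± 0.27 (SE). At day 3 Clu fell (-0.77 ± 0.21, SE, adjusted p = 0.0177) and Cd93, an endothelial receptor, rose (0.63 ± 0.11, SE, adjusted p = 0.000648), with a median of 0.02.

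Of 7 tested chemokine genes, 5 were lower and 1 higher at day 28, with a median of -1.06. Rarres2 encodes chemerin, the ligand of Ccrl2, and averaged 6.51 ± 0.23 in HF day 28 and 7.56 ± 0.34 in LF day 28 (SD, n = 6 each), a change of -1.06 ± 0.24 (SE, adjusted p = 0.00438). At day 3 it had -0.30 ± 0.24 (SE, adjusted p = 0.430). Ccl8, a monocyte attractant, averaged 2.45 ± 0.73 in HF day 28 and 6.30 ± 1.57 in LF day 28 (SD, n = 6 each), a change of -3.85 ± 0.69 (SE, adjusted p = 0.000597) on a scale where the high fat mice are near background. Ccl6 had -2.55 ± 0.47 and Ccl9 -2.09 ± 0.41 (SE). Cxcl12, a chemokine of stromal and endothelial cells, was the one that rose (0.42 ± 0.08, SE, adjusted p = 0.00132), and it rose at day 3 too (0.59 ± 0.08, SE, adjusted p = 4.21e-05), when Cxcl14 fell (-0.87 ± 0.21, SE, adjusted p = 0.00859). Csf1 and Il34, the ligands of Csf1r, were not among the tested genes.

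Beside Cd163, 7 genes of haem and iron handling were tested, and 4 were lower at day 28 with a median of -0.33. Hmox1, haem oxygenase, had -1.55 ± 0.41 (SE, adjusted p = 0.0130) and Blvrb, a biliverdin reductase, -0.998 ± 0.19 (SE, adjusted p = 0.00104). At day 3 Blvrb alone fell (-0.59 ± 0.19, SE, adjusted p = 0.0388). Of 14 lysosomal genes, the organelle of Cd68, 7 were lower at day 28 and 3 at day 3, with medians of -0.30 and -0.12. Npc2, a cholesterol carrier of lysosomes, had -0.95 ± 0.13 at day 28 (SE, adjusted p = 4.20e-05), and the cathepsins Ctsb and Ctsd -0.38 ± 0.07 and -0.33 ± 0.07 (SE). Of the partners and targets of Cd14, 1 was tested, Nfkbia, and was not called (-0.30 ± 0.14, SE, adjusted p = 0.190). Of 12 listed genes of alternatively activated macrophages, 3 were tested, and Igf1 alone was called lower at day 28 (-1.13 ± 0.20, SE, adjusted p = 0.000664). Retnla (-0.54 ± 0.25, SE, adjusted p = 0.173) and Stat6 (-0.30 ± 0.13, SE, adjusted p = 0.149) were not called.

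Markers of other cell types moved with the diet as well. The 6 tested adipocyte markers were all lower at day 28, with a median log2 change of -3.57, and 3 were lower at day 3, with a median of -1.58. Their mean level ran from 5.59 to 7.28 in HF day 28 and from 8.70 to 10.23 in LF day 28, with no overlap, and from 5.93 to 9.44 in HF day 3 and 6.89 to 9.64 in LF day 3. Slow fibre genes were all higher on high fat, 9 of 9 at both days, with a mean level of 8.70 to 9.66 in HF day 28 and 4.27 to 7.74 in LF day 28. Of 9 endothelial markers, 6 were higher at day 3 and 1 at day 28. Of 8 fibroblast markers, 2 were higher at day 3 and 2 lower at day 28, and of 2 mast cell markers none was called. The part of these cell contents in the fall of the macrophage genes was not tested. The slow fibre mean separated the diets without overlap at both days and the adipocyte mean at day 28. With the adipocyte mean in the fit, the day 28 changes were -1.24 ± 0.46 for C1qb, -1.24 ± 0.34 for Cd163, -0.57 ± 0.39 for Mrc1 and -0.28 ± 0.39 for Lyz2 (SE), and 0 of the 8 genes were called, with 26 called among all 5793. At day 3, Cd163 (-1.05 ± 0.24, SE, adjusted p = 0.00584) and Ccrl2 (-0.70 ± 0.20, SE) were called with it. With the slow fibre mean, 0 of 8 were called at either day, against 16 genes of all at day 3 and 23 at day 28. The day 28 changes with it were -0.57 ± 0.36 for C1qb, -0.37 ± 0.25 for Cd163, -0.27 ± 0.32 for Mrc1 and -0.002 ± 0.325 for Lyz2 (SE). At day 3 the change of Cd163 was then -0.15 ± 0.27 (SE, adjusted p = 0.878), and that of Ccrl2 was larger in size, at -0.95 ± 0.28 (SE, adjusted p = 0.158).

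**Figure D4:**
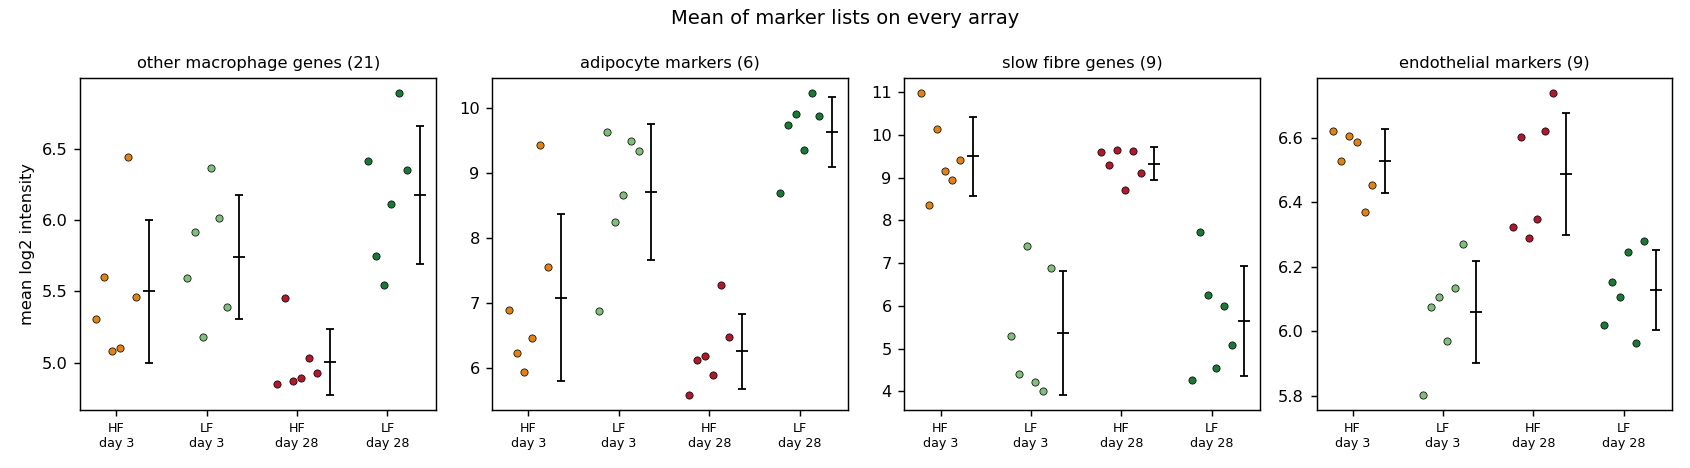
Mean level (log2) of the tested genes of 4 marker lists on each array, by diet and day, with the mean and SD of 6 arrays beside the points. The 21 other macrophage genes and the 6 adipocyte markers are lower in HF day 28 than in LF day 28, while the means of the 9 slow fibre genes and the 9 endothelial markers are higher, though 1 endothelial marker was called at day 28.

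Of other leukocytes, 6 of 6 T cell markers on the array exceeded the filter level on no array. All 7 neutrophil markers were under the filter, but S100a8 and S100a9, abundant proteins of neutrophils and monocytes, exceeded the level of 4 on 4 low fat arrays and on no high fat array. S100a8 reached 8.26 on LF day 28 replicate 5 and 6.36 on replicate 6, and 5.24 and 4.30 on LF day 3 replicates 5 and 2, against a median of 2.63 over the 24 arrays. The B cell marker Cd79b exceeded it on HF day 3 replicate 5 alone, at 5.06, which was also the HF day 3 array of highest adipocyte mean. Without these 5 arrays, 5 of the 8 genes were called lower at day 28 and 1, Cd163, at day 3 (-0.84 ± 0.23, SE, adjusted p = 0.0285). In that fit, smaller shares of all tested genes were called than the main fit's 12.5% at day 28 and 14.9% at day 3. A count of 1 of 8 at day 3 does not set these genes apart from all genes. The day 28 changes were then -1.27 ± 0.29 for C1qb, -1.06 ± 0.22 for Cd163 and -0.67 ± 0.24 for Lyz2 (SE), with adjusted p = 0.0870 for Lyz2 and 0.210 for Csf1r, and Ccrl2 had an adjusted p of 0.0799 at day 3. Of the dendritic cell genes, 4 were tested, all of the class II antigen presentation pathway that macrophages also use. At day 28 3 of them were lower, H2-Eb1 (-0.94), Cd74 (-0.68) and H2-Ab1 (-0.79), while Itgax, Flt3, Zbtb46, Cd209a and Xcr1 exceeded the filter level on no array.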

How the data were processed

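Intensities of 24 arrays were deposited as 1 table of 16361 probe sets on a linear scale. GCRMA made these deposited intensity values, per the submitters' processing notes. That method subtracts a background modelled on base content, applies quantile normalization and combines the probes of each set, so dim values depend on the background model. The log2 of the deposited values was taken with no offset. The annotation gave 14771 probe sets 1 symbol, 589 several and 937 none, beside 64 controls, and the brightest probe set stood for a gene. GCRMA's version, the probe definition and the build are not given in the sources used here.

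Group means were compared by limma's lmFit and eBayes (limma 3.58.1, R 4.3.3) over 4 groups of 6 arrays, with 20 residual degrees of freedom and two-sided Benjamini-Hochberg adjustment over 5793 genes. The number of arrays limits the precision. Array medians were 6.56 to 6.90 in linear intensity. For LF day 3 replicate 1 the labels name no DNase step, and without that array 2 of the 8 genes at day 3 and 7 at day 28 were still called by diet. The 10 genes and the gene lists were chosen with earlier results of these data known, and all 10 were to be named, with up to 4 genes of smallest p per list and the 8 genes most like the C1q mean. Genes under the filter, Csf1, Il34 and Rarres2 were named for their roles, after their values were seen. Alternatives varied normalization, filter, arrays, weights, variance model, probe set choice, block and covariates.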

Additional observations from a re-analysis of the deposited data

Results flagged for a closer look

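In HF day 28, replicate 2 was far above the other 5 mice for C1qb, at 7.56 with the nearest at 6.91, and for Lyz2, at 8.92 with the nearest at 8.38 (Dixon's test at 95%). These were 2 of 40 groups of 6 arrays examined, and chance flags about 1 in 20. Without that array the day 28 changes were -1.69 for C1qb, against -1.55 with it, and -0.94 for Lyz2, against -0.84 with it.

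The diet effect on Ccrl2 differed between day 28 and day 3 by 1.04 (log2, limma adjusted p = 0.0286), with a change of 0.40 at day 28 and of -0.64 at day 3.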

How the results depend on the processing

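Of the 8 tested genes, 7 were called by diet at day 28, and 5 to 7 were under all alternatives but the adipocyte mean (0) and the slow fibre mean (0) as covariates, with 6 to 7 when any single array was left out. At day 3 the count of 2 became 1 with the filter at 6, which drops Ccrl2, 0 with the slow fibre mean and 1 without the 5 arrays with S100a8 or Cd79b over 4, an alternative chosen after seeing the data, and was 2 without any single array. For the difference between the days the count of 1 became 0 with no filter, the filter at 6, the adipocyte mean and without those 5 arrays, and was 0 to 1 without single arrays. On low fat over time the count of 0 became 1, Ccrl2, with quantile normalization, array weights, the replicate block and the slow fibre mean, and was 0 to 1 without single arrays, and on high fat it was 0 throughout. With the slow fibre mean the day 3 changes turned to 0.40 (C1qa), 0.59 (C1qb), 0.39 (C1qc), 0.50 (Mrc1), 0.32 (Csf1r) and 0.64 (Lyz2), none called, and the cause was not tested. The change of Csf1r over time on low fat, 0.06, turned to -0.065 with the adipocyte mean, to -0.077 without the 5 arrays, and spanned -0.062 to 0.21 without single arrays. Same-numbered mice are different animals, and the main fit did not pair them. Their deviations correlated at over 0.1 in 3 of 6 pairs at each day. The highest r was 0.24 at day 3 and 0.54 at day 28. At day 28, 2 of 6 high fat arrays correlated best with their own number, and at day 3, 0 of 6. These values cannot exclude a block shared by same-numbered arrays. With the replicate block 7 genes were called at day 28 and 2 at day 3. Quantile normalization moved the median of all genes at day 28 to 0.04, from 0.01.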
